A study of Mus musculus with 8 samples.

Results

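Apolipoproteins are the proteins of lipoprotein particles, and enterocytes of the small intestine secrete dietary fat in the largest of these particles, the chylomicrons. Assembly begins when the microsomal triglyceride transfer protein, encoded by Mttp, loads lipid onto the nascent apolipoprotein B, the structural protein of the particle encoded by Apob. In the intestine the cytidine deaminase encoded by Apobec1 edits a codon of the Apob transcript to a stop codon, so that a shorter apolipoprotein B is made. Apolipoproteins A-I, A-II, A-IV, C-II and C-III join the particle later and act on its fate in plasma. The levels of Apoa1, Apoa2, Apoa4, Apoc2, Apoc3, Apob, Mttp and Apobec1 were examined in intestinal crypt organoids of 2 genotypes. These 8 genes were a fixed list of named genes, among 14276 genes with a value in the series. All 8 of 8 passed the filter on low values, and each also had a mean above that filter in the WT alone.

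The organoids were epithelial cultures grown in Matrigel and IntestiCult medium from crypts of the mouse small intestine. There were 4 WT samples, which the study describes as littermates, and 4 MG53-TG samples, from mice that overexpress MG53 in the whole body. The study also describes crypt organoids in which the transgene was crossed into an Lgr5 reporter line, with Lgr5 mice as controls, and whether these samples carry that allele cannot be told from the labels. MG53 is the TRIM family protein encoded by Trim72. The sources used here give neither the promoter of the transgene, nor the age of the mice, nor whether the samples of a group came from separate animals, so p-values measure only the spread between these samples, which may be technical. Both genotypes were cultured without a treatment named in the labels.

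Levels were given by the authors as FPKM, fragment numbers scaled to the length of the transcript and the size of the library, for transcript events such as a transcription start or end. A gene's level was the sum over its start events, or over its end events where that mean was higher. The depth of the libraries is unknown, and the start events of a sample summed to between 269094 and 284330 FPKM. Trim72 was absent from the tables of the 4 WT samples, while MG53-TG samples 1 to 4 had 16.4, 27.4, 31.9 and 36.5 FPKM. Across genes, MG53-TG samples 3 and 4 resembled each other (r = 0.977), as did samples 1 and 2 (r = 0.980), while r between the pairs was 0.957 to 0.966. Between WT samples r was 0.980 to 0.981. The fold changes, ratios and calls of the 8 genes were therefore also computed without samples 3 and 4 and without samples 1 and 2.

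Apob, on chr12:7977648-8016835 (GRCm38, plus strand), carries the site that the Apobec1 protein edits. The site is shown because it is what connects 2 of the 8 genes. It lies at chr12:8008045-8008069, within the coding part of exon 26 of 29. The capitals mark the glutamine codon, number 2179 of the annotated coding sequence, and the mooring sequence of 11 bases downstream, which begins 4 bases after the C that is edited.
Apob editing site: tacgcgataCAAttTGATCAGTATA
The deposited values are levels of events and hold no base calls, so the edited share of Apob transcripts was not analysed here.

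Sequence upstream of the start was given by RefSeq (GRCm38.p6) for 7 of the 8 genes, with no entry for Apoc3. The windows of 300 bases were searched on both strands for 4 motifs. The first was TGNACTTTG, only a part of a spaced repeat of the kind bound by HNF4 and related nuclear receptors. The others were an HNF1 motif, AGATAA, which GATA factors bind, and the TATA box letters TATAAA. The first was present in 1.41% of all 32851 windows, the HNF1 letters in 0.399%, the GATA letters in 11.2% and TATAAA in 13.6%. The windows of Apoa4 and Apobec1, which both held the first motif, and of Apob, whose match lay nearest to the start, are shown, cut at the annotated start, with the matched letters in capitals.
Apoa4, chr9:46240594-46240695, plus strand: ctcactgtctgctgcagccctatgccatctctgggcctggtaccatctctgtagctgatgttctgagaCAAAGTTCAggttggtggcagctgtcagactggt
Apobec1, chr6:122602445-122602694, minus strand: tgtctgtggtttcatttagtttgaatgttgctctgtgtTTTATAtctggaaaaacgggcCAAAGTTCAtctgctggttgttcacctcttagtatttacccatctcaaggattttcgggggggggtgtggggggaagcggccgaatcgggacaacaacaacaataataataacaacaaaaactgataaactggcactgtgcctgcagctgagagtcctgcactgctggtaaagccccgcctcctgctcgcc
Apob, chr12:7977427-7977647, plus strand: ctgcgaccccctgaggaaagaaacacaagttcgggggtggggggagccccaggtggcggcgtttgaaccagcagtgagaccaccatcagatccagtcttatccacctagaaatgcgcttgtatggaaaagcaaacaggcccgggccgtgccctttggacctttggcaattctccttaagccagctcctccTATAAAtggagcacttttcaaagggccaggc
Apoa4 and Apobec1 held the nuclear receptor letters on the reverse strand, at -182 and -191 from the RefSeq start. TATAAA lay at -60 in Apob and at -212 in both Apoa2 and, on the reverse strand, Apobec1. None of the 4 motifs was found in the windows of Apoa1, Apoc2 and Mttp. A match is a run of letters and not a measured binding site.

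All 8 genes were higher in MG53-TG than in WT organoids, and for none did the groups overlap. The ratio of the mean FPKM ranged from 3.62 for Apobec1 to 37.8 for Apoc3, and it was above 10 for the 5 apolipoproteins of the A and C classes. All 8 passed the threshold of an adjusted p of 0.05 upward in limma, and the median log2 fold change was 3.48. Over all 11048 genes tested, 44.3% passed in either direction and 15.6% upward, the groups did not overlap upward in 15.7%, and the median log2 fold change was -0.17. A ratio of at least 3 was reached by 5.82% of all genes and a ratio of at least 10 by 2.07%. For each of the 8 genes the two-sided exact permutation test over 70 relabellings gave p = 0.0286, the smallest that 4 against 4 samples allow. All 8 were also called higher without MG53-TG samples 3 and 4 and without samples 1 and 2. As the genes were proposed with earlier results of these samples known, the counts are a description.

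**Figure D1:**
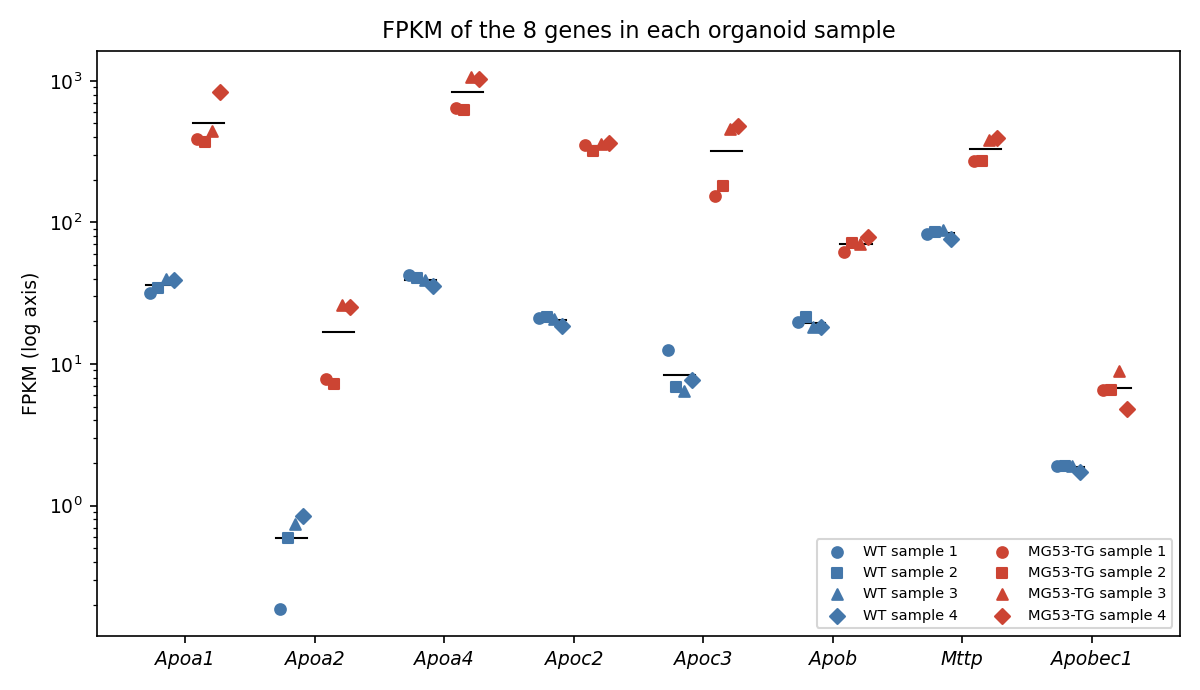
FPKM (log axis) of the 8 genes in each of the 4 WT (blue) and 4 MG53-TG (red) samples, with the group mean as a line. In MG53-TG, samples 3 and 4 lie above samples 1 and 2 for Apoa1, Apoa2, Apoa4, Apoc3, Mttp and, within a span of only 320 to 362 FPKM, Apoc2.

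Apob itself was at 19.9, 21.4, 18.2 and 18.2 FPKM in WT samples 1 to 4 and at 61.6, 71.1, 70.9 and 78.6 FPKM in MG53-TG, in sample order. The group means were 19.4 ± 1.57 and 70.5 ± 6.94 FPKM (SD over 4 samples, here and below), a ratio of 3.63. Its log2 fold change was 1.81 (SE 0.10) with an adjusted p of 5.66e-06. In MG53-TG the spread of Apob was 9.85% of the mean, lower than that of the other genes except Apoc2, and samples 3 and 4 were not separated from samples 1 and 2.

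The transcripts that begin at the Apob start were listed almost entirely with the short second exon of 39 bases, at chr12:7978213-7978251, whose inclusion was 98.6% to 100% in WT and 99.4% to 100% in MG53-TG. The end event listed for Apob gave a different picture from its start. It was at 2.45, 2.23, 2.28 and 0.160 FPKM in the WT and at 0.935, 14.1, 0.173 and 11.4 FPKM in the MG53-TG samples, so that the groups overlapped. This end, beginning at chr12:8015873, is annotated only for a short Apob transcript (chr12:8012359-8016835). No end event was listed for the last exon of the longest transcript (chr12:8015015-8016835). The listed end carried far less than the 18.2 to 78.6 FPKM of the start. Read from it alone, Apob did not pass the threshold (log2 fold change 0.83, adjusted p = 0.46).

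Mttp, on chr3:138089854-138144968 (minus strand), had the highest level of the 8 genes in the WT. It was at 83.5, 85.9, 88.6 and 76.9 FPKM in WT and at 272, 273, 384 and 397 FPKM in MG53-TG, in sample order. The mean rose from 83.7 ± 5.01 to 332 ± 68.3 FPKM, a ratio of 3.96 (log2 fold change 1.95, SE 0.14, adjusted p = 2.21e-05). Between 97.8% and 100% of the Mttp level in every sample came from the start at chr3:138131240-138131377, whose first exon holds the start codon. A second start, further upstream at chr3:138143172-138143388, was at 0.0862 to 1.85 FPKM in the WT and at 0.0934 to 2.62 FPKM in MG53-TG, with overlapping groups. The RefSeq window searched above is that of this minor start.

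Apobec1, on chr6:122577792-122602444 (minus strand), was the lowest of the 8 in MG53-TG. WT samples 1 and 2 were at 1.91 FPKM, sample 3 was just below them and sample 4 was at 1.72 FPKM. MG53-TG samples 1 to 4 were at 6.60, 6.57, 8.99 and 4.79 FPKM. On average it rose from 1.86 ± 0.09 to 6.74 ± 1.72 FPKM, a ratio of 3.62 (log2 fold change 1.41, SE 0.16, adjusted p = 2.48e-04). The MG53-TG samples differed more among themselves than the WT samples, without a split between samples 3 and 4 and the other two.

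Within a sample, the proportions of Mttp and Apobec1 to Apob overlapped between the genotypes. The ratio of Mttp to Apob FPKM was 4.01 to 4.87 in WT and 3.84 to 5.41 in MG53-TG. The ratio of Apobec1 to Apob was 0.0892 to 0.104 and 0.0610 to 0.127, respectively. The ratio of Apoa4 to Apob, by contrast, was 1.88 to 2.17 in WT and 8.72 to 14.9 in MG53-TG. These ratios were among 7 pairs chosen after the levels were seen. In the exact permutation test, Apoa4 to Apob gave p = 0.0286, and p = 0.133 after adjustment over the 7 pairs, so it did not pass. The adjusted p was 0.47 for Mttp to Apob and 0.91 for Apobec1 to Apob.

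Apoa1, Apoc3 and Apoa4 lie next to each other within 14880 bases of chromosome 9. Apoa1 (chr9:46228580-46230466, plus strand) encodes the main protein of high-density lipoprotein. It was at 32.0, 34.3, 40.0 and 39.2 FPKM in WT samples 1 to 4 and at 387, 369, 443 and 828 FPKM in MG53-TG, in sample order. The mean rose from 36.4 ± 3.86 to 507 ± 217 FPKM, a ratio of 13.9 (log2 fold change 3.69, SE 0.24, adjusted p = 1.12e-05). MG53-TG sample 4 was well above the other 3 MG53-TG samples, and the lowest MG53-TG sample was still 9.23 times the highest WT sample.

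Apoa4 (chr9:46240696-46243459, plus strand) encodes an apolipoprotein that enterocytes secrete on chylomicrons. Its WT samples were at 42.5, 40.3, 39.5 and 35.4 FPKM and its MG53-TG samples at 643, 619, 1058 and 1033 FPKM. Only a single start and a single end were listed, with the same value in each sample. The mean rose from 39.4 ± 2.95 to 838 ± 239 FPKM, a ratio of 21.3 (log2 fold change 4.33, SE 0.19, adjusted p = 1.32e-06). By FPKM, Apoa4 stood between positions 1187 and 1425 among all genes of a WT sample and between positions 21 and 49 in MG53-TG. The antisense gene Gm10680 overlaps the last part of Apoa4 and was listed only in MG53-TG samples 1 and 4, at 4.12 and 4.57 FPKM; whether the libraries kept the strand is not given in the sources used here.

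Apoc3 (chr9:46232933-46235636, minus strand) encodes an inhibitor of lipoprotein lipase. It was at 12.5, 6.90, 6.48 and 7.75 FPKM in WT and at 153, 182, 458 and 477 FPKM in MG53-TG, in sample order. The mean rose from 8.40 ± 2.76 to 317 ± 174 FPKM, a ratio of 37.8 (log2 fold change 4.94, SE 0.40, adjusted p = 3.35e-05). MG53-TG samples 3 and 4 were 2.79 times samples 1 and 2 on average, and without samples 3 and 4 the ratio to WT was 20.0. The log2 fold change of Apoc3 was the 7th largest increase among the 11048 genes.

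Among the genes that lie around these 3 and were measured (Bud13, Zpr1, Sik3, Pafah1b2 and Sidt2), 1 rose and 1 fell, and the median log2 fold change was -0.17. The median was -0.34 without MG53-TG sample 2, -0.09 without sample 3 and -0.10 without sample 4. Without MG53-TG samples 3 and 4 none fell and the median was 0.10, and without samples 1 and 2 there were 3 that fell and the median was -0.46. After scaling by median of ratios none fell and the median was 0.003. With quantile normalization it was -0.01, and from start events only -0.05. Sidt2, a lysosomal membrane protein gene, rose from 9.16 ± 0.90 to 16.8 ± 2.53 FPKM, a ratio of 1.83, a call that was lost from end events only (adjusted p = 0.12). Zpr1, a zinc finger protein gene, fell from 10.1 ± 1.01 to 7.16 ± 0.58 FPKM, a ratio of 0.709, a call that was lost with median-of-ratios scaling (adjusted p = 0.053). Apoa5 and Tagln had no entry.

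Apoa2 (chr1:171225054-171226379, plus strand) encodes the second protein of high-density lipoprotein. It was near the lower limit in the WT, at 0.186, 0.588, 0.747 and 0.849 FPKM, and at 7.82, 7.25, 26.2 and 25.5 FPKM in MG53-TG, in sample order. On average it rose from 0.593 ± 0.292 to 16.7 ± 10.6 FPKM, a ratio of 28.2 (log2 fold change 3.27, SE 0.42, adjusted p = 4.68e-04). The log2 scale with 1 FPKM added understates the change of a gene this low. Samples 3 and 4 were 3.43 times samples 1 and 2, and the ratio to WT was 12.7 without the former and 43.6 without the latter.

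Apoc2 (chr7:19671579-19677941, minus strand) encodes the activator of lipoprotein lipase. It was at 21.3, 21.5, 20.7 and 18.5 FPKM in WT and at 355, 320, 358 and 362 FPKM in MG53-TG. The mean rose from 20.5 ± 1.40 to 348 ± 19.4 FPKM, a ratio of 17.0 (log2 fold change 4.02, SE 0.08, adjusted p = 6.95e-08). The spread within MG53-TG was 5.56% of the mean, the smallest of the 8 genes, and samples 3 and 4 were only 1.07 times samples 1 and 2 on average. No event was named Apoc2 in the deposited files. Both of its starts were filed under the neighbouring Apoc4 and were given to Apoc2 because their first exons match its annotated transcripts.

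**Figure D2:**
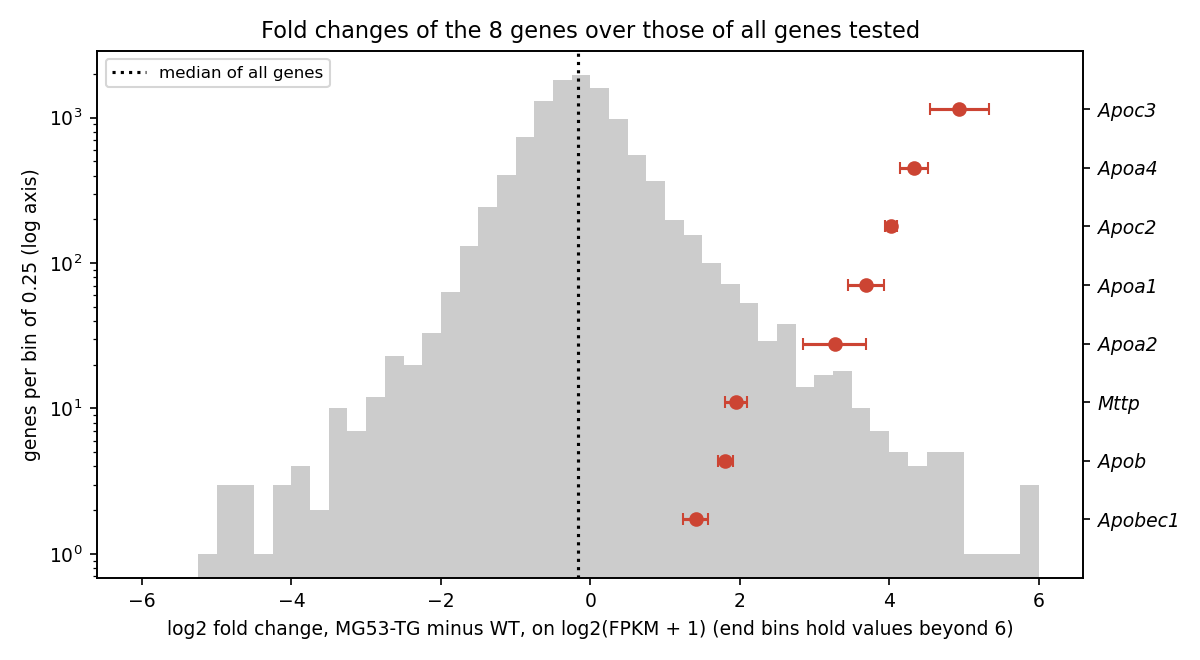
Log2 fold change (MG53-TG minus WT, on log2(FPKM + 1)) of the 8 genes, as points with SE bars, over the histogram of the 11048 genes tested (grey, log axis, with the dotted line at their median of -0.17). The 5 apolipoproteins of the A and C classes lie between 3.27 and 4.94, and Mttp, Apob and Apobec1 between 1.41 and 1.95.

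In the WT the order of the mean levels was Mttp, Apoa4, Apoa1, Apoc2, Apob, Apoc3, Apobec1 and Apoa2. The ranges of Apoa4 and Apoa1 overlapped there, as did those of Apoc2 and Apob. In MG53-TG the order was Apoa4, Apoa1, Apoc2, Mttp, Apoc3, Apob, Apoa2 and Apobec1. The ranges overlapped between Apoa4 and Apoa1, between Apoc2 and Mttp, between Mttp and Apoc3 and between Apoa2 and Apobec1. Mttp thus made up 38.7% to 41.0% of the summed FPKM of the 8 genes in WT and 12.4% to 14.8% in MG53-TG, while Apoa4 made up 17.9% to 19.9% and 32.2% to 37.7%. The sum itself was 198 to 216 FPKM in WT and 1848 to 3206 FPKM in MG53-TG.

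The FPKM listed at single starts differed between samples of the same genotype for several of the genes. For Apoa1 the end event had the same value as the sum of the starts in every sample. How FPKM were assigned to starts is not given in the sources used here, so these values may not measure the use of a start. Of Apoc2, the sum over its starts was steadier than the single starts. In Apoc2, WT samples 1 and 2 had 100% and 99.8% of their level at the downstream start (chr7:19676722-19676864), but WT samples 3 and 4 had 92.1% and 92.9% at the upstream start (chr7:19677866-19677941). All 4 MG53-TG samples had most of their level at the upstream start, 83.8% to 94.7%. The start codon of Apoc2 lies downstream of both. If only the highest single event of the gene was taken, the ratio for Apoc2 was 25.8 in place of 17.0.

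In Apoa1, the main annotated start (chr9:46228580-46228736) held 95.6% to 99.8% of the level in the WT and 98.6% to 99.0% in MG53-TG samples 1, 2 and 4. MG53-TG sample 3 stood apart, with 13.6% there, 69.9% at a start at chr9:46228048-46228258 and 12.5% at chr9:46225534-46225755, both upstream of the annotated gene. In Apoa2, the annotated start held all of the level in WT sample 1 and in MG53-TG samples 2 to 4. An upstream start at chr1:171221869-171221978, absent from the GENCODE annotation, held 81.2% in WT sample 2, all of it in WT samples 3 and 4 and 15.5% in MG53-TG sample 1. With under 1 FPKM in each WT sample, the shares of Apoa2 rest on very little signal.

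**Figure D3:**
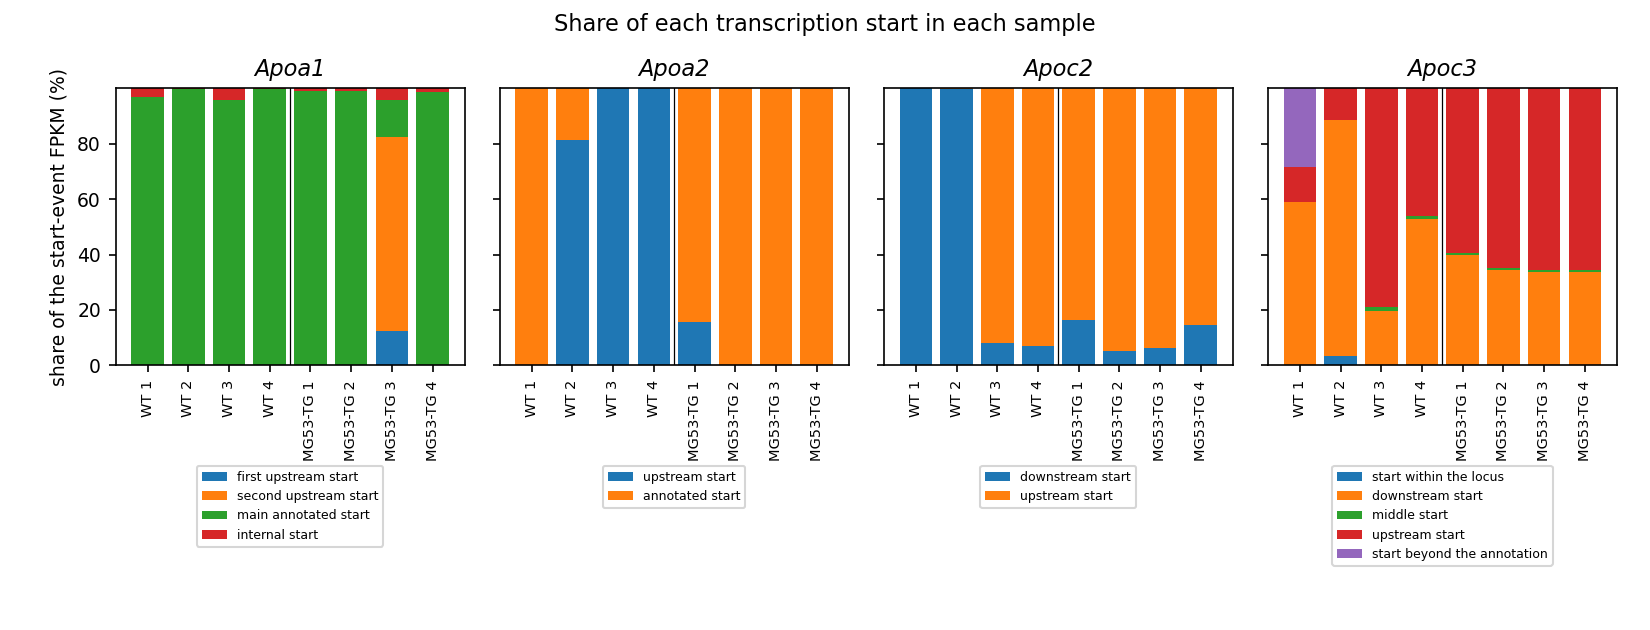
Share (%) of the start-event FPKM at each listed start of Apoa1, Apoa2, Apoc2 and Apoc3 in the 4 WT and 4 MG53-TG samples. WT samples differ from each other in Apoa2, Apoc2 and Apoc3, and MG53-TG sample 3 differs from the rest in Apoa1.

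Apoc3 had 5 listed starts, and 2 of them carried nearly all of its level in MG53-TG. The start at chr9:46235522-46235636 was at 1.57, 0.795, 5.11 and 3.58 FPKM in WT and at 91.4, 118, 301 and 313 FPKM in MG53-TG, in sample order. The start at chr9:46235259-46235299 was at 7.33, 5.86, 1.28 and 4.08 FPKM in WT and at 61.2, 62.7, 155 and 161 FPKM in MG53-TG. Each was higher in every MG53-TG sample than in any WT sample. The share of the first ranged from 11.5% to 78.8% in WT and from 59.6% to 65.7% in MG53-TG.

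Transcripts from the latter start of Apoc3 either contain or skip the second exon (chr9:46234659-46234726, 68 bases), which holds the annotated start codon. The annotated transcript without it is not classed as protein coding. Transcripts with the exon were at 2.84, 5.31, 0.486 and 2.20 FPKM in WT and at 38.2, 39.6, 70.2 and 69.9 FPKM in MG53-TG. Transcripts without it were at 4.50, 0.555, 0.789 and 1.88 FPKM in WT and at 23.0, 23.0, 84.5 and 90.9 FPKM in MG53-TG. Both forms were thus higher in MG53-TG without overlap. The share with the exon was 38.7%, 90.5%, 38.1% and 53.9% in WT and 62.4%, 63.2%, 45.4% and 43.5% in MG53-TG, so the groups overlapped in this share.

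**Figure D4:**
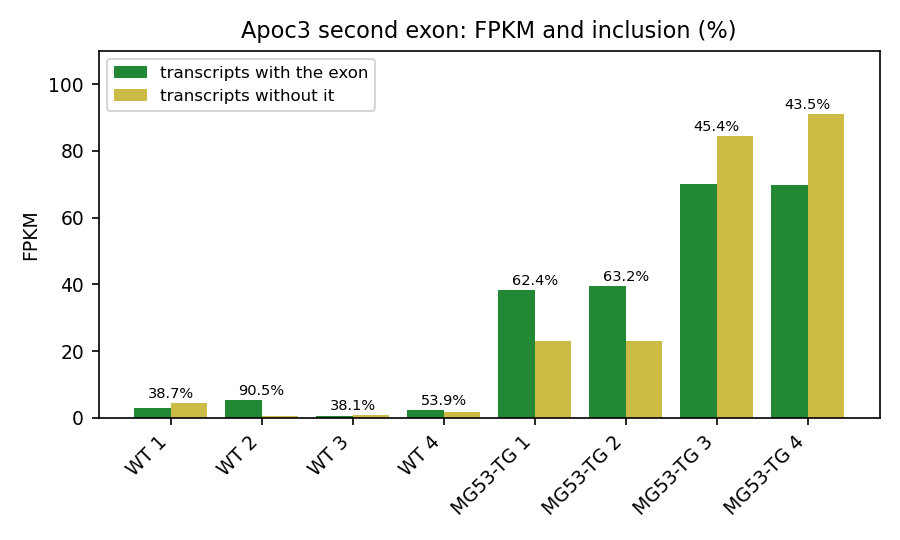
FPKM of Apoc3 transcripts with and without the second exon in each sample, with the share that contains it (%) printed above the bars. Both forms are higher in all MG53-TG samples, and MG53-TG samples 3 and 4 have lower shares (45.4% and 43.5%) than samples 1 and 2 (62.4% and 63.2%).

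The other apolipoproteins did not move as a block. Of 19 such genes 12 had a value and 6 were tested, of which 2 rose, 1 fell and 3 did not pass, with a median log2 fold change of 0.19 (0.07 without MG53-TG samples 3 and 4 and 0.31 without samples 1 and 2, where 3 rose). Apoc4 rose from 0.217 ± 0.096 to 3.88 ± 0.64 FPKM (ratio 17.8, adjusted p = 1.35e-05). However, 80.4% to 98.2% of the FPKM at the Apoc4 start in MG53-TG belonged to a junction that skips from Apoc4 into Apoc2, as in the annotated read-through gene Gm44805. Apol7a, an apolipoprotein L gene, rose from 1.46 ± 0.28 to 5.53 ± 4.13 FPKM, with adjusted p = 0.044, and this call was lost without MG53-TG samples 3 and 4 (adjusted p = 0.084), without any single WT sample, without MG53-TG sample 3 or 4 alone, or without the filter on low values (adjusted p = 0.066). Clu, which encodes clusterin (apolipoprotein J), fell from 4.29 ± 0.70 to 1.29 ± 0.28 FPKM, a ratio of 0.301. Apoe, the remnant receptor ligand, was at 0.357 to 1.30 FPKM in WT and 0.185 to 1.42 FPKM in MG53-TG and did not pass the test (adjusted p = 0.63).

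Around Apoc2 on chromosome 7, 1 of 7 tested neighbours rose, the Apoc4 start above, and 2 fell, with a median of -0.16. With a pseudocount of 0.1 the median was -0.49, after scaling by median of ratios -0.09 and with quantile normalization -0.07. The median ranged from -0.39 to -0.02 when single samples were left out (-0.39 without MG53-TG sample 4, -0.27 without WT sample 1, -0.06 and -0.04 without MG53-TG samples 3 and 1, and -0.02 without WT sample 4), and it was -0.33 without MG53-TG samples 3 and 4 and 0.02 without samples 1 and 2. Tomm40, a subunit of the mitochondrial import pore, fell from 65.6 ± 4.27 to 37.4 ± 9.74 FPKM, and Nectin2, an adhesion protein gene, from 65.5 ± 3.02 to 45.1 ± 7.88 FPKM. From end events only, the call of Nectin2 was lost (adjusted p = 0.38).

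Of 8 tested genes for the partner of the transfer protein and for cofactors of Apob editing, 1 rose and 3 fell, with a median of -0.50. The median was -0.25 without MG53-TG sample 4, -0.24 without samples 3 and 4 and -0.99 without samples 1 and 2. Without MG53-TG sample 1 there were 2 that rose, and without samples 1 and 2 there were 2 that rose and 5 that fell. P4hb, which encodes protein disulfide isomerase, the smaller subunit of the transfer protein complex, rose from 269 ± 20.0 to 429 ± 71.5 FPKM, a ratio of 1.59. Tnpo2, an import receptor, fell from 29.1 ± 4.18 to 15.0 ± 2.29 FPKM, and Hnrnpab, an RNA-binding protein, fell from 376 ± 26.9 to 216 ± 64.0 FPKM. The editing cofactors A1cf and Rbm47 did not pass the test. A1cf was at 5.44 to 6.69 FPKM in WT and 4.92 to 11.8 FPKM in MG53-TG, and Rbm47 was at 31.8 to 46.2 and 31.3 to 45.3 FPKM.

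Of the 24 genes of particle lipidation and secretory transport, 8 rose, 1 fell and 15 did not pass, with a median of 0.16. The median was 0.09 without MG53-TG sample 3, and after scaling by median of ratios it was 0.34 and 11 rose. Cideb, a lipid droplet protein that acts in particle lipidation, rose from 12.8 ± 1.68 to 63.0 ± 12.2 FPKM, a ratio of 4.94. Prap1, which encodes a secreted lipid-binding protein, rose from 254 ± 34.3 to 932 ± 193 FPKM, and Cidec, a lipid droplet protein gene, from 4.19 ± 0.67 to 13.4 ± 1.34 FPKM. The other genes that rose were Tm6sf2, Pla2g12b, Sar1b, Sec23a and Sec24a, and Sar1b, a GTPase of the vesicles that carry chylomicron precursors, reached a ratio of 2.13. The gene that fell, Kif15, encodes a mitotic kinesin. It was at 6.84 to 15.9 FPKM in WT and 0.512 to 3.91 FPKM in MG53-TG.

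Of 9 tested genes of lipoprotein remodelling in plasma, 3 rose and 2 fell, with a median of 0.05. The sign of this median was not stable. It ranged from -0.08 (without WT sample 4) to 0.11 (without WT sample 3) when single samples were left out. After scaling by median of ratios it was 0.21 and with quantile normalization 0.20, and 4 rose in each. It was 0.18 without MG53-TG samples 3 and 4, -0.06 without samples 1 and 2 and -0.15 from end events. Angptl4 and Angptl8, inhibitors of lipoprotein lipase, rose with ratios of 2.50 and 2.11, and Pcsk5, a proprotein convertase gene, with a ratio of 1.92. Lipg, the endothelial lipase gene, fell from 7.13 ± 0.86 to 1.28 ± 0.76 FPKM. Of 14 tested lipoprotein receptor genes, 2 rose and 6 fell, with a median of -0.31 (-0.20 without MG53-TG samples 1 and 2 and -0.13 after scaling by median of ratios). Scarb1, the receptor for high-density lipoprotein, rose from 25.4 ± 1.62 to 45.5 ± 4.29 FPKM, and Amn, which encodes amnionless, from 7.52 ± 0.40 to 10.4 ± 1.00 FPKM. Sort1, the sortilin gene, fell from 15.8 ± 0.73 to 5.61 ± 1.48 FPKM. Lrp8 fell from 3.20 ± 1.72 to 0.820 ± 0.480 FPKM, a call lost without MG53-TG samples 3 and 4 (adjusted p = 0.13), without WT sample 1 or 3, without MG53-TG sample 4 and with limma's sample weights (adjusted p = 0.052).

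Among 29 tested transcription regulators known to act on genes of this kind, 9 rose and 10 fell, with a median of -0.21. The median was 0.02 without WT sample 1, -0.06, -0.09 and -0.02 without WT samples 2, 3 and 4, 0.08 without MG53-TG sample 3 and 0.14 from end events, and 6 fell after scaling by median of ratios and 5 from end events. Creb3l3, a membrane-bound transcription factor that activates apolipoprotein genes in liver and intestine, was at 1.94, 1.56, 2.51 and 1.79 FPKM in WT and at 43.7, 32.8, 61.6 and 39.6 FPKM in MG53-TG, in sample order. It rose by 3.92 on the log2 scale (SE 0.19, adjusted p = 2.54e-06). Hnf4g, a nuclear receptor of enterocytes, rose from 15.5 ± 0.93 to 97.6 ± 28.6 FPKM, a ratio of 6.30, and Nr1h4, the bile acid receptor gene, from 7.41 ± 0.31 to 28.8 ± 7.56 FPKM. Hnf4a, the relative of Hnf4g, fell from between 140.0 and 159 FPKM to between 100.1 and 117 FPKM, and it was chosen for mention after its values were seen. Foxa2, a forkhead factor, fell from 2.22 ± 0.63 to 0.292 ± 0.394 FPKM. Foxa1 was at 6.90 to 8.32 FPKM in 3 WT samples and in MG53-TG samples 1 and 2 at 2.55 and 3.74 FPKM, with missing values in the other 3 samples, and its call was lost when missing values were set to 0 (adjusted p = 0.22) and with the replicate block (adjusted p = 0.17).

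**Figure D5:**
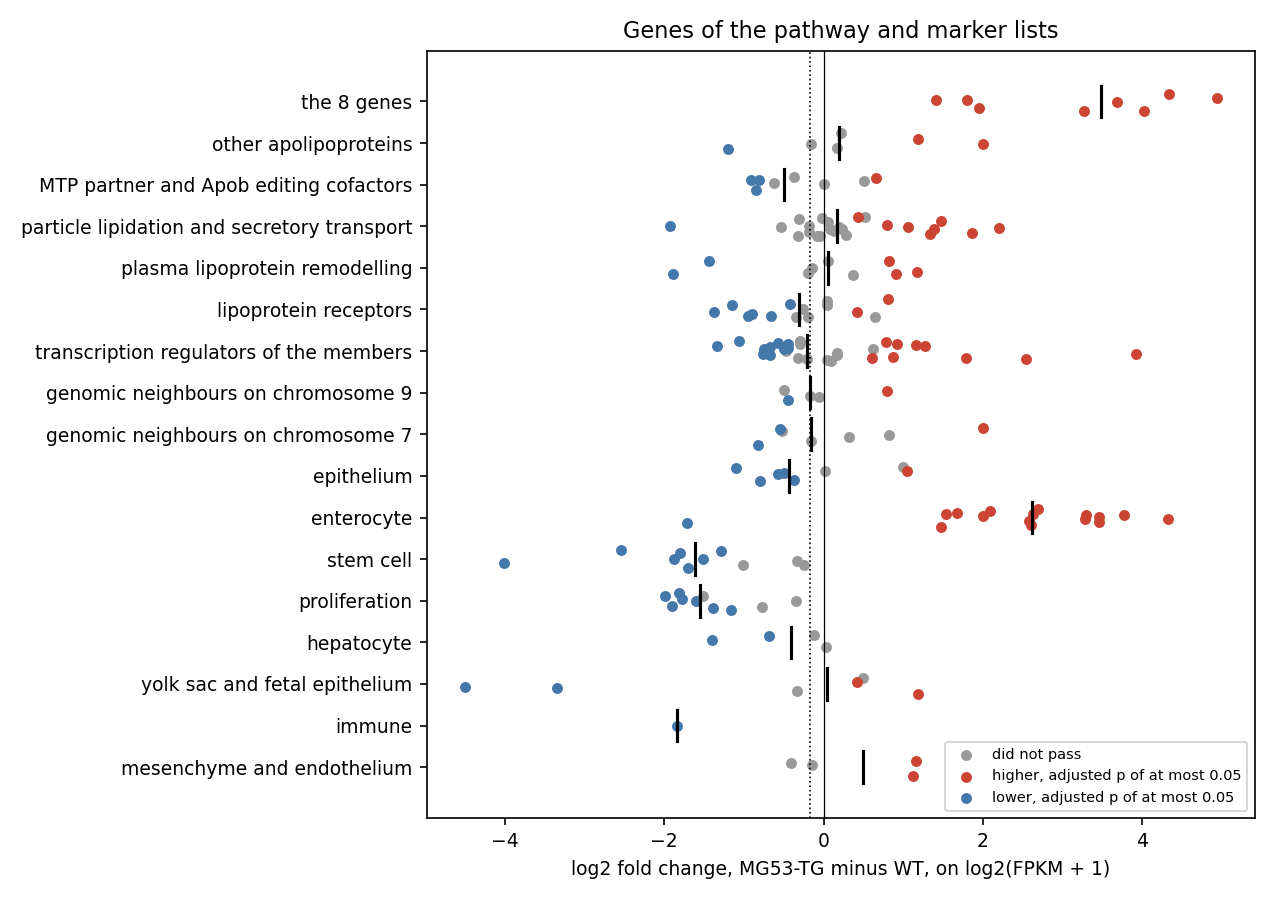
Log2 fold change (MG53-TG minus WT, on log2(FPKM + 1)) of the 8 genes and of each tested gene of the pathway and marker lists, as points coloured by the test, with the list median as a bar and the median of all genes as a dotted line. The enterocyte markers have a median of 2.62 and the other apolipoproteins 0.19.

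Most enterocyte markers rose with the 8 genes, while stem cell and proliferation markers fell or did not pass. The part of these cell types in the rise was not tested, and markers of secretory cell types were not read here. Of 16 enterocyte markers, 15 rose and 1 (Lgals3) fell, with a median of 2.62, and their summed level was 754 to 840 FPKM in WT and 4787 to 5499 FPKM in MG53-TG. Sis, the sucrase-isomaltase gene, was at 67.5 to 74.5 FPKM in WT and 561 to 1111 FPKM in MG53-TG, and Slc5a1, a glucose transporter gene, at 67.0 to 72.9 and 444 to 478 FPKM. In these bulk samples more cells of a type and more RNA per cell cannot be told apart. Of 10 stem cell markers 7 fell and none rose, with a median of -1.61, and of 10 proliferation genes 7 fell and none rose, with a median of -1.56. Without any single WT sample, or without MG53-TG sample 3, 4 of the proliferation genes fell, and their median was -0.65 without MG53-TG samples 3 and 4 and -2.54 without samples 1 and 2. The median of the stem cell markers was -1.03 and -2.42 in these fits. The stem cell sum was 567 to 746 FPKM in WT and 72.4 to 337 FPKM in MG53-TG, and the proliferation sum was 545 to 590 and 142 to 415 FPKM. Olfm4, a stem cell marker, was at 153 to 292 FPKM in WT, at 50.1 and 57.7 FPKM in MG53-TG samples 1 and 2 and at 6.07 and 0.948 FPKM in samples 3 and 4. Top2a, a topoisomerase of dividing cells, was at 105 to 122 FPKM in WT and 13.0 to 73.5 FPKM in MG53-TG, and its call was lost without any single WT sample or without MG53-TG sample 3.

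Hepatocytes and yolk sac also express these apolipoproteins, so their markers were read as well. Of 13 hepatocyte markers 9 had a value and 4 were tested, of which none rose and 2 fell. Fgb, Fgg, Tat and Ahsg had no entry, and Alb was at 0.521 to 0.883 FPKM in WT and at 0 in MG53-TG. Cps1 and Ttr, which the intestine also expresses, were at 163 to 296 FPKM and 27.5 to 39.8 FPKM over the 8 samples. Cyp2e1 was at 1.29 to 2.51 FPKM in WT and at 0 in MG53-TG. Afp, the yolk sac marker, was at 1.45 to 2.33 FPKM in WT and 1.88 to 5.63 FPKM in MG53-TG, and of the 6 tested genes of yolk sac and fetal epithelium 2 rose and 2 fell. The count that rose was 1 without any single WT sample, without MG53-TG sample 1, 3 or 4 and with the replicate block. Ly6a, a fetal-type epithelial gene, was at 62.4 to 84.6 FPKM in WT and 1.60 to 3.09 FPKM in MG53-TG, and Anxa1 at 21.5 to 30.6 and 0.154 to 3.22 FPKM. Of 8 epithelial markers 1 rose and 5 fell (3 after scaling by median of ratios, where Krt8 was not called, adjusted p = 0.24), with Epcam at 398 to 507 FPKM, Krt8 at 549 to 828 FPKM and Krt18 at 158 to 545 FPKM over the 8 samples. The immune markers summed to 3.77 to 9.24 FPKM in WT and 0.609 to 1.47 FPKM in MG53-TG, most of it Cd68, with Lyz2 and Cd3e below 0.3 FPKM, and those of mesenchyme and endothelium to 3.23 to 6.17 and 2.67 to 7.10 FPKM. Of the latter 4 were tested, of which 2 rose and none fell. These were the collagen genes Col3a1 and Col1a2, listed at 0 in the 4 WT samples. In MG53-TG samples 2 to 4, Col3a1 was at 1.62, 0.904 and 1.25 FPKM (adjusted p = 0.00071) and Col1a2 at 2.07, 0.926 and 0.739 FPKM (adjusted p = 0.0040), each with a missing value in sample 1. With missing values set to 0 neither was tested.

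The genes most like the 8 across the 8 samples were found by the Pearson correlation of log2(FPKM + 1) with the mean of the 8 genes, each scaled to mean 0 and SD 1, among 10661 other genes. They were Gtf2b (r = 0.9991), Enpep (0.9990), Galm (0.9989), Cyp2d26 (0.9989) and Cyp3a11 (0.9989). The 8 samples form 2 groups, and 596 genes had r of at least 0.95, so these values mainly describe the difference between the groups. Enpep, a brush border peptidase gene that is also on the enterocyte list, was at 1.95 to 2.44 FPKM in WT and at 50.3, 49.1, 76.6 and 79.2 FPKM in MG53-TG, in sample order. Cyp3a11, a cytochrome P450 gene, was at 14.4 to 18.8 FPKM in WT and at 261, 289, 507 and 497 FPKM in MG53-TG. Both showed the same step between MG53-TG samples 1 and 2 and samples 3 and 4 as Apoa4 and Mttp. Gtf2b, a general transcription factor gene, and Galm, a galactose mutarotase gene, rose with ratios of 2.38 and 2.43. Reads of Cyp2d26 and Cyp3a11 may be shared with near-identical family members.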

How the data were processed

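RNA from 4 WT and 4 MG53-TG organoid samples was sequenced. The authors trimmed reads, mapped them to the mouse genome and deposited, for each sample, the FPKM of every transcript event. The submitters' processing notes name cutadapt 1.9.1, HISAT2 2.0.1, HTSeq 0.6.1, DESeq2 and mm10; the tool that made the event tables is not given in the sources used here. The files give no read counts.

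Exon boundaries in GENCODE (GRCm38) decided which gene an event belonged to. Of 128369 events, 85.5% matched the gene named in the file, 5.71% were given to another gene and 8.83% kept the name without a unique match. Gene values were sums over start events, or over end events where that mean was higher. Where a sample lacked a gene, the value was missing if the group's other samples reached a median of 0.5 FPKM, and otherwise 0. Genes whose mean reached 0.5 FPKM were tested as log2(FPKM + 1) with limma 3.58.1 (eBayes with trend, R 4.3.3). The p-values were adjusted by Benjamini and Hochberg and called at 0.05. The fit was tested on simulated data. An exact permutation test (two-sided) was used for single genes. Other steps used Python 3.11.15, pandas 2.3.3, numpy 2.4.6 and scipy 1.17.1.

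The members, the 8 pathway lists, the 8 marker lists and the tests were chosen with earlier results of these data known. Named were the 8 genes, up to 3 increases and 2 decreases per pathway list, the 3 highest genes per marker list, the 5 genes most like the members, and Trim72; 2 genes that this rule names are not reported here. Results were recomputed with a pseudocount of 0.1, without the filter or with one at 2 FPKM, after quantile normalization or scaling by median of ratios, with limma's sample weights, with a replicate block, without each sample, with absent genes at 0, and with other ways to sum or assign events.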

Additional observations from a re-analysis of the deposited data

Results flagged for a closer look

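Of 122 groups of 4 samples, 6 held a sample whose gap to its nearest neighbour, divided by the range of the group, exceeded Dixon's 95% critical value. Chance alone gives this in about 1 in 20 groups. MG53-TG sample 4 was the highest for Apoa1, at 828 FPKM against 369 to 443 FPKM in the other 3 samples (ratio 0.839). MG53-TG sample 2 was the lowest for Apoc2, at 320 FPKM against 355 to 362 FPKM (0.837). WT sample 4 was the lowest for Apobec1, at 1.72 FPKM against up to 1.91 FPKM (0.934). WT sample 3 was the highest for Ttr, at 37.9 FPKM against 33.3 to 33.8 FPKM (0.894), and the only WT sample with a value for Cd3e, at 0.0913 FPKM (1). WT sample 1 was the lowest for Cyp2d26, at 33.1 FPKM against 36.2 to 36.7 FPKM (0.872).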

How the results depend on the processing

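The count of the 8 genes called higher was 8 in all settings but 2. From end events only it was 5 of 6 genes with a value, since Apob was not called (0.83, adjusted p = 0.46), and with the gene names of the files alone it was 7 of 7, since Apoc2 then has no value. Leaving out each sample gave 8 to 8 genes called, 48 to 55 calls in the pathway lists (52 with all samples) and 3909 to 5192 of all genes (4898 with all samples). The largest exact permutation p of the 8 genes, 0.0286 with all samples, was 0.429 from end events only, 0.0571 with the highest single event, and 0.0571 to 0.0571 with any sample left out, the smallest that 3 against 4 allow. Without MG53-TG samples 3 and 4 and without samples 1 and 2, alternatives chosen after seeing the data, it was 0.133 in both, the smallest that 2 against 4 allow, and 3884 and 5959 of all genes were called.

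Same-numbered samples correlated in their deviations at 0.087, -0.021, 0.092 and -0.064, so no pairing by number was seen. A pairing in another order was not examined, and the study names a paired t test for the marker genes of its crypt organoids. With the replicate block, 8 of the 8 genes, 51 genes of the pathway lists and 4448 of all genes were called, and Foxa1 lost its call (adjusted p = 0.17). Scaling by median of ratios moved the median over all genes from -0.17 to -0.01 on the log2 scale and the calls from 1728 higher and 3170 lower to 2248 and 2233. The direction turned for Epcam (0.015 with all samples) with quantile normalization (-0.13) and without MG53-TG samples 3 and 4 (-0.053), and leaving out single samples gave -0.051 to 0.071, with -0.029 without WT sample 1. It turned for Smoc2 with end events only (0.30), and for Ttr after scaling by median of ratios (0.063) and without MG53-TG samples 1 and 2 (0.041). For Lyve1 it turned after scaling by median of ratios (0.0081), with quantile normalization (0.0059) and with the replicate block (0.00034), and leaving out single samples gave -0.27 to 0.00034. None of these turned values passed the threshold, and the causes were not tested. Depth is unknown, which limits what can be said of genes under 1 FPKM, such as Apoa2 in the WT.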
